A study of Bos taurus with 31 samples.

Results

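The genes described here are 9 p53 target and DNA damage response genes in the liver of dairy cows: CDKN1A, MDM2, GADD45A, GADD45B, BBC3, SESN1, TP53INP1, BTG2 and CCNG1. They were chosen by symbol from a list of well known p53 targets, without use of their values in these samples, though earlier results of these data were known. Of the 24616 rows of the count table, 8 carried one of these symbols, and all 8 were among the 15916 genes that passed the filter on low counts. BBC3, which encodes the pro-apoptotic protein PUMA, had no row under that symbol and was not analysed here.

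Liver was taken by puncture biopsy from lactating German Holstein cows after 16 weeks of feeding, and mRNA was sequenced from 1 biopsy of each of 31 cows. GLY cows ate a ration whose peas, wheat grain and straw carried residues of the glyphosate formulation Roundup Record, which also holds a surfactant and another co-formulant. CON cows ate a control ration, by which, the paper reports, they were also minimally exposed to glyphosate. Glyphosate and its co-formulants cannot be told apart in this design. Each treatment was fed at a high (HC, 60% of dry matter) or a low (LC, 30%) concentrate feed proportion (CFP). This gave 8 cows in CON_HC, 8 in CON_LC, 8 in GLY_HC and 7 in GLY_LC. The paper reports a higher daily glyphosate exposure in GLY_HC than in GLY_LC, through a higher dry matter intake. Glyphosate dose and CFP therefore cannot be told apart where GLY_HC is set against GLY_LC, or where the GLY effect is compared between feeds. The ages of the animals were not used here.

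The p53 protein is kept at a low level in unstressed cells by MDM2, a ubiquitin ligase that marks it for degradation. DNA damage activates the kinases ATM, ATR, CHEK1 and CHEK2, which stabilise p53, and p53 then switches on genes for cell cycle arrest, repair and cell death. Because these targets rise together after DNA damage in many tissues, their transcripts are commonly read as a sign of genotoxic stress. Several of them, such as GADD45A, GADD45B and BTG2, also respond to hormones, nutrients and inflammation without DNA damage.

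Read totals per cow lay between 11675775 and 36675542, with group medians from 15639368 in CON_HC to 22532845.5 in CON_LC. The tested p53 target genes held between 28 reads, for GADD45B, and 5111 reads, for CCNG1, in a single cow. Values are CPM, the gene's reads relative to the scaled library total, after TMM scaling, a correction for differences in library composition. CPM is not corrected for transcript length, so it is compared here between cows and not between genes. The 10 hepatocyte markers, ALB and APOA1 among them, summed to between 125919 and 214848 CPM per cow. Of 2 libraries that stood apart, the first was that of cow 912 in GLY_LC, in which all 6 matched genes of an intestinal epithelium list were higher than in any other cow. They summed to 387 CPM there, against ranges of 18.1 to 28.4 in CON_HC, 20.2 to 38.1 in CON_LC and 22.4 to 29.3 in GLY_HC. The intestinal fatty acid binding protein FABP2 reached 206 CPM in cow 912 and at most 0.163 CPM elsewhere, with 0 reads in 24 of the other cows. The same library had the lowest hepatocyte marker sum, 125919 CPM. The other was that of cow 103 in CON_LC, whose 8 markers of stellate cells and fibroblasts summed to 2261 CPM, against a median over all cows of 244 CPM. Without cow 103 none of the log2 fold changes of the set moved by more than 0.065, and 0 of 8 genes were called in each of the 7 comparisons. Results that rest on cow 912 are given with and without it, and the part of these other cells in any value was not tested. In a biopsy, fewer cells of a type and less RNA per cell cannot be told apart.

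No gene of the set passed the test for a difference with glyphosate feed. In the comparison of GLY with CON over both feeds, with CFP as a covariate, 0 of 8 genes were called by edgeR's quasi-likelihood test at an unadjusted p under 0.05 and an adjusted p under 0.1, and 0 by DESeq2. With edgeR the same rule called 0% of all 15916 genes. At an unadjusted p under 0.05 alone, 1 of the 8 (TP53INP1, lower in GLY) stood beside 3.92% of all genes. This count rested on single cows: with each of the 31 left out in turn it was 0 for 20 cows, 1 for 10, and 3 without cow 912, when CDKN1A, TP53INP1 and BTG2 were all lower in GLY (2.76% of all genes) and none was called. Of the fold changes, 6 were negative and 2 positive, with a median log2 fold change of -0.10 beside 0.0037 over all genes. Within feeds, 0 of 8 genes were called in GLY_HC against CON_HC, where 0% of all genes were called. Again 0 of 8 were called in GLY_LC against CON_LC, where 0.0628% of all genes were. That share rested on single cows: without cow 912, cow 103 or cow 32, edgeR called 0 of all genes there. With all cows, an unadjusted p under 0.05 was reached by 1 of 8 in the HC comparison (2.92% of all genes) and by 0 of 8 in the LC comparison (5.65%). With cows left out in turn the HC count ran from 0 to 2, the 2 being without cow 32, and the LC count was 1 without cow 912 (CDKN1A, lower in GLY). The test of whether the GLY effect differed between feeds called 0 of 8 genes (0% of all genes), and 0 of 8 had an unadjusted p under 0.05 (4.21%). With cows left out in turn that count was 0 for 30 cows and 1 without cow 32 (4.06% of all genes). The gene was GADD45B, at -1.06 (95% interval -1.99 to -0.13), and it was not called. In all 4 of these tests DESeq2 also called 0 of the 8. The shares of all genes beside them are edgeR's, and those of DESeq2 are not given here. With DESeq2, the paper reports called genes for GLY against CON within both feeds. The GLY and CON ranges overlapped for every gene in each of these comparisons.

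**Figure D1:**
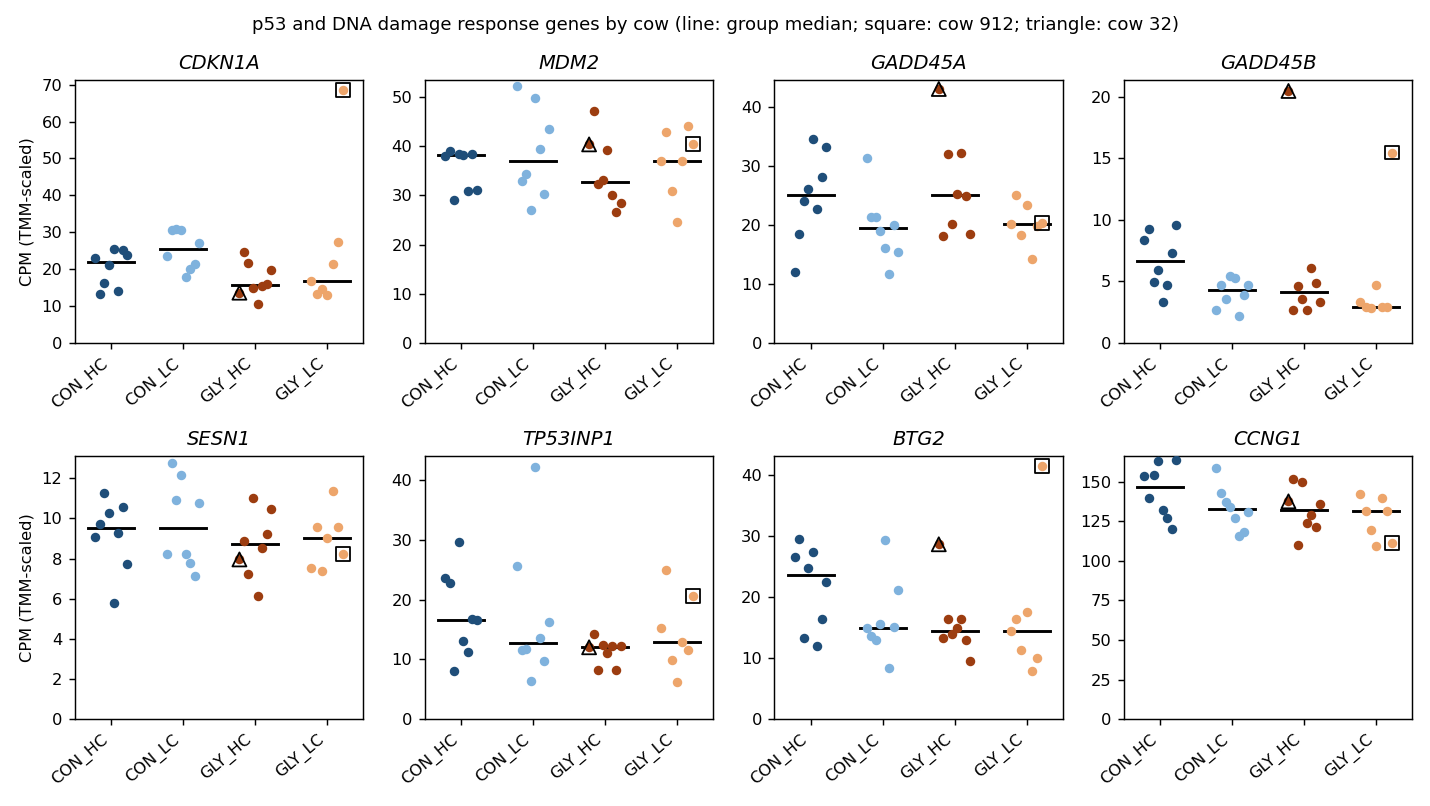
CPM (linear axis) of the 8 genes, 1 point per cow, in the 4 feeding groups, with a line at each group median. A square marks cow 912 of GLY_LC, which had the highest CDKN1A (68.4 CPM) and BTG2 (41.4 CPM), and a triangle marks cow 32 of GLY_HC, which had the highest GADD45A (43.1 CPM) and GADD45B (20.5 CPM).

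CDKN1A encodes p21, the inhibitor of cyclin-dependent kinases through which p53 halts the cell cycle. In CON_HC its level ran from 13.2 CPM over a median of 22.005 to 25.3 CPM, and in GLY_HC from 10.54 over 15.7 to 24.7 CPM. In CON_LC it ran from 17.9 over 25.3 to 30.9 CPM, and in GLY_LC from 13.0 over 16.8 to 68.4 CPM. The medians were thus lower in GLY within both feeds, while the highest value of all 31 cows belonged to cow 912 of GLY_LC, the next being 30.9 CPM in CON_LC. Of the 15 GLY cows, 3 lay above the median of the 16 CON cows. The log2 fold change of GLY over CON was -0.14 (95% interval -0.51 to 0.24, adjusted p = 0.9999, edgeR). Cow 912 decided this value: without it the log2 fold change was -0.37, still not called (adjusted p = 0.9999, edgeR). Within LC, the log2 fold change moved from -0.018 (adjusted p = 0.9999, edgeR) to -0.51 (adjusted p = 1, edgeR) when that cow was left out.

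MDM2, the p53 antagonist that is itself a p53 target, varied little. Its median was 38.2 CPM in CON_HC (29.0 to 39.1), 37.0 in CON_LC (27.0 to 52.2), 32.7 in GLY_HC (26.6 to 47.1) and 37.0 in GLY_LC (24.6 to 44.2). Between GLY and CON its log2 fold change was -0.052 (SE 0.096), and the 95% interval, -0.25 to 0.14, reached no further than 1.10-fold upward. CCNG1, cyclin G1, an atypical cyclin that acts in feedback on p53 through MDM2, had the smallest spread of the 8, with a coefficient of variation over all cows of 11.4%. It was 144 ± 16.7 CPM (SD, n = 8) in CON_HC and 132 ± 14.3 (n = 8) in GLY_HC, and 133 ± 13.8 (n = 8) in CON_LC and 127 ± 13.2 (n = 7) in GLY_LC. The log2 fold change of CCNG1, -0.099, had an interval of -0.22 to 0.019, the narrowest of the set. For both feedback genes the groups overlapped over most of their ranges.

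GADD45A and GADD45B encode small stress sensor proteins that bind PCNA and p21 and act in growth arrest and DNA demethylation. GADD45A ran from 11.96 over a median of 25.1 to 34.6 CPM in CON_HC and from 18.1 over 25.1 to 43.1 in GLY_HC. In LC it ran from 11.7 over 19.4 to 31.4 CPM in CON_LC and from 14.2 over 20.2 to 25.1 in GLY_LC. The GLY and CON medians nearly coincided within each feed, and the log2 fold change over both feeds was 0.077 (-0.21 to 0.36). GADD45B was the most variable of the 8, with a coefficient of variation of 71.6% and a 9.30-fold range. It ran from 3.35 over 6.62 to 9.57 CPM in CON_HC and from 2.66 over 4.11 to 20.5 in GLY_HC. In CON_LC it ran from 2.20 over 4.301 to 5.43 CPM and in GLY_LC from 2.83 over 2.92 to 15.5. In each GLY group 1 cow stood far above the rest, cow 32 in GLY_HC and cow 912 in GLY_LC, while both GLY medians were under the CON medians. Its log2 fold change over both feeds was 0.077 with the widest interval, -0.49 to 0.65. Without cow 32 the value in HC moved from -0.14 to -0.75 (adjusted p = 1 for both, edgeR), and without cow 912 the value in LC moved from 0.31 to -0.31, neither of them called.

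BTG2, an antiproliferative protein that promotes removal of mRNA tails, showed the same 2 cows at the top of their groups. It ran from 11.96 over 23.5 to 29.5 CPM in CON_HC and from 9.57 over 14.4 to 28.6 in GLY_HC. In CON_LC it ran from 8.42 over 15.0 to 29.3 CPM and in GLY_LC from 7.94 over 14.4 to 41.4. CON_HC held the highest median of the 4 groups. The log2 fold change of GLY over CON was -0.20 (-0.61 to 0.21), and -0.40 without cow 912 (adjusted p = 0.9999, edgeR). Within HC it was -0.45 (adjusted p = 1, edgeR) and without cow 32 it was -0.63 (adjusted p = 1, edgeR).

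SESN1, sestrin 1, which restrains mTORC1 signalling and supports antioxidant defence, had medians of 9.51 CPM in CON_HC (5.81 to 11.3), 9.50 in CON_LC (7.15 to 12.8), 8.72 in GLY_HC (6.14 to 11.01) and 9.04 in GLY_LC (7.40 to 11.4). GLY and CON cows differed in it by a log2 fold change of -0.10 (-0.30 to 0.096). TP53INP1, a stress protein that promotes p53-dependent cell death and autophagy, had the largest difference of the set. It ran from 7.999 over 16.6 to 29.6 CPM in CON_HC and from 8.21 over 12.1 to 14.3 in GLY_HC. In CON_LC it ran from 6.45 over 12.7 to 42.2 CPM and in GLY_LC from 6.21 over 12.8 to 24.9. The highest CON_HC value was above every GLY_HC cow, and 3 of 15 GLY cows were above the CON median. The log2 fold change was -0.45 over both feeds (-0.89 to -0.0022, adjusted p = 0.9999, edgeR) and -0.64 within HC (-1.26 to -0.019, adjusted p = 1, edgeR). An exact two-sided permutation test of log2 CPM within HC gave a difference of -0.55 for TP53INP1 (p = 0.0393), the smallest p of 16 such tests over the 8 genes and both feeds, and 0.629 after Benjamini-Hochberg adjustment over the 16. Without cow 169 of CON_LC, which had the highest TP53INP1 of all cows, the value over both feeds was -0.30 (adjusted p = 0.9996, edgeR). Within LC the log2 fold change was then 0.094 in place of -0.24.

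**Figure D2:**
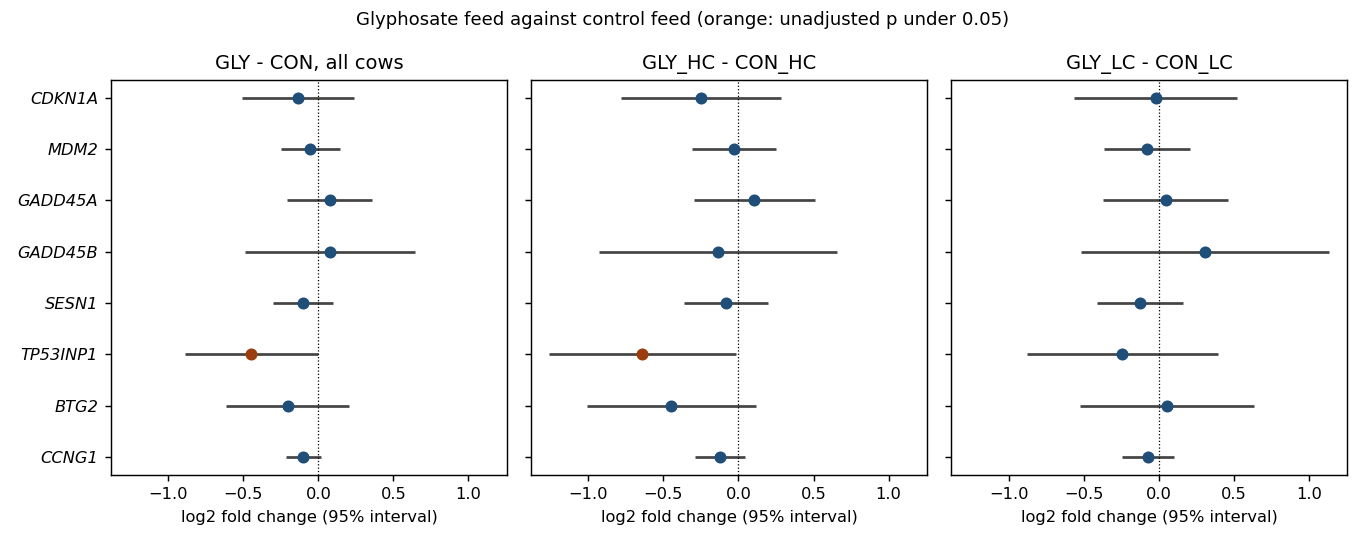
Log2 fold change (x axis) of each gene in GLY over CON, over both feeds and within each feed; points are edgeR estimates and lines their 95% intervals, with an unadjusted p under 0.05 in orange. Only TP53INP1 is orange, at -0.45 over both feeds and -0.64 within HC, and 6 of 8 points in the first panel lie left of 0.

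The 95% intervals bounded the upward changes as follows. In GLY against CON over both feeds, the upper bound lay under 2-fold for all 8 genes and under 1.5-fold for 7, GADD45B reaching 1.56-fold. Within HC the upper bound was also under 2-fold for 8 of 8 genes, with a highest bound of 1.57-fold. Within LC it was under 2-fold for 7 of 8, GADD45B reaching 2.20-fold. That bound rested on cow 912: without it the GADD45B bound within LC was 1.34-fold and the highest of the 8 was 1.40-fold, and over both feeds the highest was 1.30-fold. These are intervals for single genes and were not corrected for the number of genes, and they are not limits of what the calling rule could detect.

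The comparison of the concentrate proportions also gave no called gene of the set. In HC against LC over both treatments, 0 of 8 genes were called by edgeR or DESeq2. EdgeR called 1.45% of all genes there, and the share for DESeq2 is not given here. The edgeR share stood for 231 genes, which became 136 without cow 912, 126 without cow 103 and 83 without cow 32. With all cows, an unadjusted p under 0.05 was reached by 2 of 8, beside 13.7% of all genes. The median log2 fold change of the 8 was 0.014, beside -0.015 over all genes, with 4 genes positive and 4 negative. GADD45A ran from 11.96 over 25.1 to 43.1 CPM in the 16 HC cows and from 11.7 over 19.9 to 31.4 CPM in the 15 LC cows, and 12 HC cows exceeded the LC median. The log2 fold change was 0.38 (SE 0.14, adjusted p = 0.209, edgeR), and the unadjusted p stayed under 0.05 whichever of the 31 cows was left out. GADD45B differed by 0.50 in the same direction (SE 0.28, adjusted p = 0.437, edgeR), by 0.72 within CON (adjusted p = 0.851, edgeR) and by 0.27 within GLY (adjusted p = 0.833, edgeR). In CON, 5 of 8 HC cows lay above every LC cow. Cow 912 and cow 32 pulled the GADD45B value over both treatments in opposite directions. It was 0.80 without cow 912 (adjusted p = 0.137, edgeR) and 0.23 without cow 32. The value within GLY rested on the same cows, at 0.89 without cow 912 (adjusted p = 0.522, edgeR) and -0.34 without cow 32 (adjusted p = 0.767, edgeR). Without cow 912, BTG2 differed by 0.34 (adjusted p = 0.414, edgeR), against 0.15 with it.

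CDKN1A had the opposite sign, at 18.6 ± 4.94 CPM (SD, n = 16) in HC and 25.1 ± 13.5 (n = 15) in LC. Its log2 fold change was -0.43 (SE 0.18, adjusted p = 0.276, edgeR) with all cows and -0.20 (adjusted p = 0.594, edgeR) without cow 912. MDM2, SESN1, TP53INP1 and CCNG1 had log2 fold changes between -0.14 and 0.092, each with an interval that spanned 0. Within treatments, edgeR called 0 of 8 genes in CON_HC against CON_LC (0% of all genes) and 0 of 8 in GLY_HC against GLY_LC (0.201%). DESeq2 also called 0 of 8 in each, but its shares of all genes are not given here. With DESeq2, the paper reports called genes in both of these comparisons. Without cow 912, edgeR called 0 of all genes in the GLY comparison and 7 in the CON comparison. Without cow 32 it called 0 in each. With all cows, an unadjusted p under 0.05 was reached by 0 of 8 in CON (5.96% of all genes) and by 1 of 8 in GLY (12.5%). That gene was CDKN1A, with a log2 fold change of -0.55 (adjusted p = 0.392, edgeR), which became -0.055 without cow 912. GADD45A was similar in both treatments, 0.35 in CON and 0.41 in GLY.

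**Figure D3:**
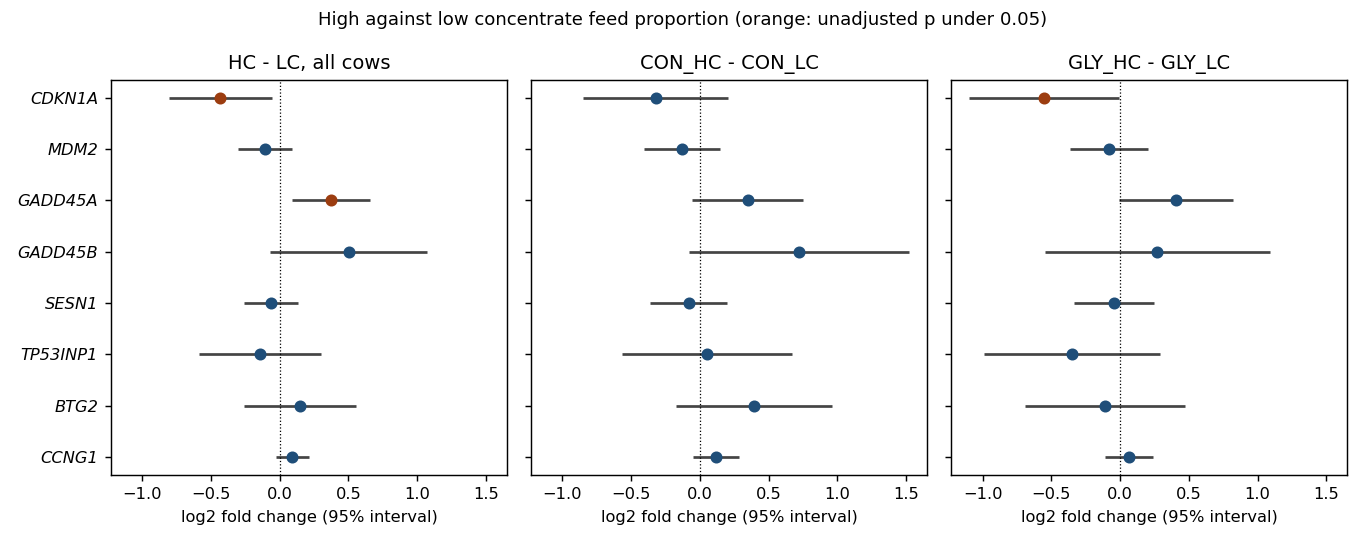
Log2 fold change (x axis) of each gene in HC over LC, over both treatments and within each; points are edgeR estimates and lines their 95% intervals, with an unadjusted p under 0.05 in orange. GADD45A lies at 0.38 and CDKN1A at -0.43 in the first panel.

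The rest of the pathway was read from 10 lists of p53, checkpoint, repair, apoptosis and proliferation genes. Of their 178 symbols 170 matched a row and 168 passed the filter. In GLY against CON over both feeds, 0 of these 168 genes were called by edgeR and 0 by DESeq2, and 6 (3.57%) had an unadjusted p under 0.05, beside 3.92% of all genes. The list medians lay between -0.045 and 0.078 on the log2 scale. Among the further p53 targets, 0 of 26 were called and 1 had an unadjusted p under 0.05, DDB2, a sensor of ultraviolet damage (-0.14, adjusted p = 0.9999, edgeR); the list ran from -0.14 to 0.27 with a median of 0.00. APAF1, the scaffold of the apoptosome, had the next smallest p (0.14, adjusted p = 0.9999, edgeR). The p53 regulators had 1 of 9 genes at an unadjusted p under 0.05, higher in GLY, with a list median of 0.078 and a highest value of 0.37, and the acetyltransferase KAT5 was at 0.13 (adjusted p = 0.9999, edgeR).

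Of 20 damage sensors and checkpoint kinases, 1 had an unadjusted p under 0.05. This was CHEK1, the kinase that signals stalled replication, at 18.3 ± 4.99 CPM (SD, n = 16) in CON and 12.9 ± 3.78 (n = 15) in GLY. The difference, -0.52 on the log2 scale (SE 0.14, adjusted p = 0.590, edgeR) was not called. Its unadjusted p was under 0.05 with each of the 31 cows left out in turn, when the log2 difference ranged from -0.56 to -0.44. In the same comparison, stellate cell and fibroblast markers had 3 of 8 genes lower in GLY at an unadjusted p under 0.05, with a median of -0.51. Without cow 103 they had 0 of 8, with a median of -0.15, and CHEK1 was at -0.53. Hepatocyte markers had 2 of 10 higher, though their median was -0.049, and 0 of 10 without cow 912, when CHEK1 was at -0.45. Intestinal epithelium markers, for which cow 912 stood apart, had 6 of 6 higher with all cows. The part of any of these cells in the CHEK1 value was not tested. The other damage sensor named here, RNF168, a ubiquitin ligase at double-strand breaks, was at 0.12 (adjusted p = 0.9999, edgeR). Base excision repair had 0 of 19 genes at an unadjusted p under 0.05, with the glycosylase MBD4 at -0.14 and the ligase LIG3 at -0.11. Nucleotide excision repair had 1 of 20, RPA3, a subunit of the single-strand binding complex RPA (0.17, adjusted p = 0.9999, edgeR), with the TFIIH subunit GTF2H2 at -0.21. Mismatch repair and direct reversal had 0 of 10, with ALKBH2 at -0.14 and PMS1 at -0.091. Homologous recombination and crosslink repair had 0 of 23, with FANCG at 0.083 and XRCC3 at 0.27, and end joining had 0 of 9, with XRCC6 at -0.081 and POLM at -0.17. Single cows moved some of these values: ALKBH2 was at -0.075 without cow 912, XRCC3 at 0.15 without cow 127 and POLM at -0.11 without cow 170.

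Among 16 apoptosis genes, 1 had an unadjusted p under 0.05, the anti-apoptotic BCL2 (0.50, SE 0.19, adjusted p = 0.990, edgeR), which stayed under 2 CPM in every cow. BAK1, a pore-forming executor, was at 0.16 (adjusted p = 0.9999, edgeR). Among 16 proliferation genes, 1 had an unadjusted p under 0.05, the replicative helicase subunit MCM7 (0.13, adjusted p = 0.9999, edgeR), and MCM5 was also at 0.13 (adjusted p = 0.9999, edgeR), ranging from 0.077 without cow 152 to 0.23 without cow 260. Within HC, 5 of the 168 genes (2.98%) had an unadjusted p under 0.05, all higher in GLY, and within LC 3 (1.79%). The interaction had 8 (4.76%). In each of these 3 tests 0 of 168 genes were called.

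**Figure D4:**
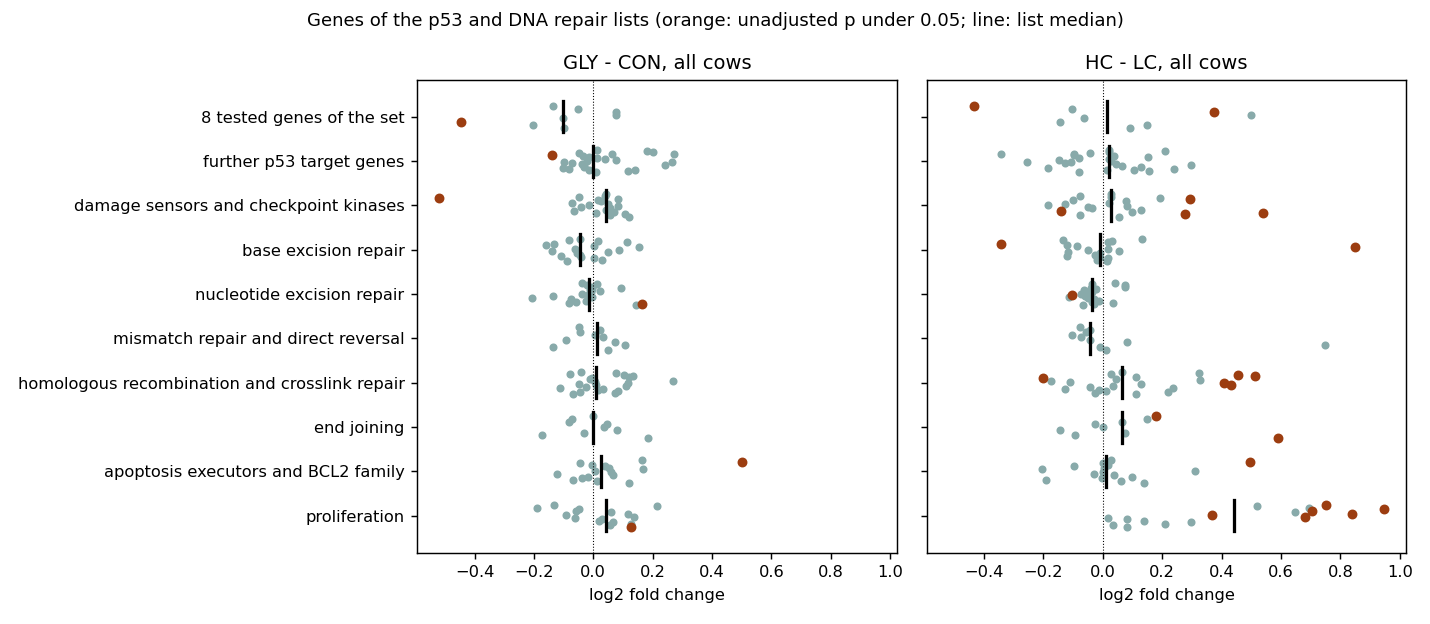
Log2 fold change (x axis) of each tested gene of the set and of most of the lists, in GLY over CON (left) and HC over LC (right), both over all cows; each point is 1 gene, orange marks an unadjusted p under 0.05 and a black line is the list median. On the left the median of the 8 genes of the set lies at -0.10; on the right the proliferation list is centred on 0.44.

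In HC against LC over both treatments, 1 of the 168 genes was called and 23 (13.7%) had an unadjusted p under 0.05, 18 higher and 5 lower in HC, beside 13.7% of all genes. With each cow left out in turn, the number of called list genes ranged from 0 to 4, with 0 for 17 of the 31 cows and 4 without cow 260 of CON_LC. Markers of macrophages and Kupffer cells had 6 of 10 higher in HC at an unadjusted p under 0.05, CD68 and CD5L called, and sums of 573 to 1592 CPM in CON_HC, 709 to 1342 in CON_LC, 677 to 1691 in GLY_HC and 699 to 1345 in GLY_LC. Markers of stellate cells and fibroblasts differed in the other direction, with 7 of 8 lower in HC at an unadjusted p under 0.05 and DCN called. Their sums ran from 184 to 307 CPM in CON_HC, 159 to 2261 in CON_LC, 131 to 216 in GLY_HC and 213 to 384 in GLY_LC. Every one of these markers had reads in every cow. Without cow 103 the stellate and fibroblast count was 4 of 8 and the macrophage count 5 of 10, and without cow 912 they were 5 of 8 and 5 of 10. The part of these cells in the list counts was not tested.

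The proliferation list had 6 of 16 genes higher in HC at an unadjusted p under 0.05 and 0 called, with a median of 0.44 beside -0.015 over all genes. CCNB2, a mitotic cyclin, was at 0.95 (adjusted p = 0.263, edgeR) and the mitotic kinase AURKA at 0.37 (adjusted p = 0.248, edgeR). Homologous recombination genes had 5 of 23, among them BARD1 at 0.45. Damage sensors had 4 of 20, among them CHEK2 at 0.29 and the CHEK1 adaptor CLSPN at 0.54. Base excision repair had 2 of 19, NTHL1 at -0.34 and NEIL3 at 0.85, and end joining 2 of 9, POLQ at 0.59 and XRCC4 at 0.18. Several of these genes had few reads. Their highest group means were 0.888 CPM for CCNB2, 0.760 for BARD1, 1.004 for CLSPN, 0.304 for NEIL3 and 0.868 for POLQ. POLQ had means of 0.868 CPM in CON_HC and 0.396 in CON_LC, but 0.718 in GLY_HC and 0.661 in GLY_LC. Nucleotide excision repair had 1 of 20, RAD23B at -0.11, with GTF2H1 also at -0.11, and apoptosis 1 of 16, BCL2 at 0.50, with BMF at 0.31. Mismatch repair had 0 of 10, with EXO1 at 0.75, a gene at a mean of at most 0.237 CPM per group, which was at 0.39 without cow 152 and 1.11 without cow 260. The p53 regulators had 2 of 9, 1 higher and 1 lower in HC, the lower one being the deubiquitinase USP7 at -0.12. The further p53 targets had 0 of 26, with RPS27L at -0.13 (-0.081 without cow 209), RRM2B at 0.15 and a median of 0.021. Within treatments, 10 of the 168 genes (5.95%) had an unadjusted p under 0.05 in CON and 18 (10.7%) in GLY, beside 5.96% and 12.5% of all genes. In each of them edgeR called 0, and DESeq2 called 0 in CON and 1 in GLY.

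Some members are also known targets of other signals, and 3 lists of such genes were read beside them. Over all genes, the shares at an unadjusted p under 0.05 were 3.92% with GLY and 13.7% with CFP. Immediate early genes had 0 of 14 with GLY and 2 of 14 with CFP. Within LC, 4 of 14 were lower in GLY (5.65% of all genes), with a list median of -0.20, and 3 of 14 without cow 912; within HC the count was 0 and the median 0.19. Their summed level was highest of all cows in cow 32, at 213 CPM, and was 197 CPM in cow 912, around a median of 119 CPM. These are the cows with the highest GADD45B. Cow 166 of CON_LC lay between them at 206 CPM with 5.43 CPM of GADD45B, and cow 134 of CON_HC had 197 CPM with 3.35 CPM of GADD45B, under the median of 4.68 CPM over all cows. Glucocorticoid-induced genes had 3 of 12 with GLY, 1 higher and 2 lower, and 1 of 12 with CFP; without cow 912 the counts were 1 and 0. Targets of ATF4, the factor of the amino acid response, had 2 of 11 with GLY and 6 of 11 with CFP, all 6 lower in HC, with a median of -0.38; without cow 912 the counts were 0 and 4. None of the genes of these 3 lists was called by edgeR in either comparison.

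From cow to cow, 2 pairs of the 8 genes varied together past the adjusted threshold. Of their 28 pairs, 19 had a positive Pearson correlation of log2 CPM over the 31 cows and 2 passed Benjamini-Hochberg adjustment over the 28 pairs with both coefficients, by permutation tests with 100000 two-sided resamples. MDM2 and TP53INP1 correlated with r = 0.75 (adjusted p = 0.000280, permutation) and Spearman's rho = 0.70 (adjusted p = 0.000840, permutation). Without the 2 cows farthest from the MDM2 median r was 0.69, and with group means subtracted it was 0.78. Within groups r was 0.76 in CON_HC, 0.93 in CON_LC, 0.55 in GLY_HC and 0.82 in GLY_LC. GADD45B and BTG2 correlated with r = 0.74 (adjusted p = 0.000280, permutation) and rho = 0.67 (adjusted p = 0.00182, permutation), r = 0.65 without cows 32 and 912, and r = 0.72 with group means subtracted. Within groups this r was 0.31 in CON_HC, 0.72 in CON_LC, 0.84 in GLY_HC and 0.91 in GLY_LC. CDKN1A and MDM2, both direct p53 targets, had r = 0.19 (p = 0.304, permutation), and no pair with CDKN1A passed the adjustment.

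**Figure D5:**
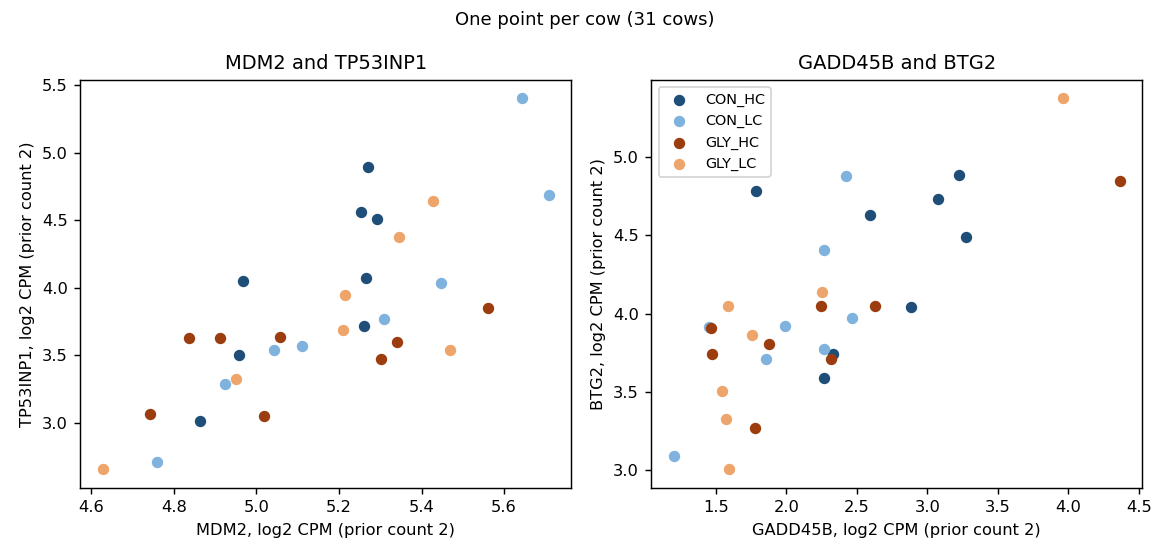
Log2 CPM of MDM2 against TP53INP1 (left, r = 0.75) and of GADD45B against BTG2 (right, r = 0.74), 1 point per cow, coloured by feeding group. The 4 groups intermingle along both trends.

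The genes whose levels followed each member most closely were sought among genes with a symbol and a mean of at least 2 CPM, by Pearson's r of log2 CPM over the 31 cows. This is a ranking chosen for its high values and carries no test. MDM2 and TP53INP1 had the same nearest rows, RSC1A1 (r = 0.86 and 0.83) and DDI2 (0.85 and 0.83). RefSeq lists RSC1A1 as another name of DDI2, so these rows may stand for the same gene. Next for MDM2 came CDON (0.85) and for TP53INP1 REV3L (0.80), the catalytic subunit of a translesion polymerase. GADD45A was nearest to G0S2 (0.78), an inhibitor of triglyceride breakdown, KLF10 (0.72) and ANGPTL4 (0.68), an inhibitor of lipoprotein lipase. GADD45B and BTG2 were each other's nearest gene, followed by PIM3 (0.72) and SGK1 (0.71) for GADD45B, which became 0.60 and 0.45 without cows 32 and 912, and by MCL1 (0.73) and NEDD9 (0.72) for BTG2. CDKN1A was nearest to TRIB2 (0.76), TAGLN (0.75) and SLC1A4 (0.73), and these became 0.49, 0.54 and 0.52 without cows 131 and 912. SESN1 was nearest to PRKCQ (0.71), IGFBP6 (0.66) and MMRN2 (0.64), and CCNG1 to GZF1 (0.76), SLC25A43 (0.68) and MYO1D (0.59). None of these nearest genes besides GADD45B and BTG2 was itself a member of the set. All these values come from the same 31 libraries and share their depth and scaling.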

How the data were processed

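Liver mRNA of 31 cows was sequenced from TruSeq Stranded libraries (paired-end, HiSeq). The authors trimmed reads with Trim Galore, aligned them to UMD3.1 with HISAT2 2.1.0, assigned unique alignments to genes with HTSeq 0.8.0 and deposited raw counts. Whether HTSeq used strand is not given in the sources used here. A second deposited table of normalized values was not used. Groups and cow numbers came from the labels.

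Of 24616 rows, the 15916 whose reads over all cows reached 20 were tested with edgeR 4.0.16 (R 4.3.3, TMM, quasi-likelihood F test). The models held the 4 groups, or treatment plus CFP for comparisons over all cows. A gene was called when p was under 0.05 and the adjusted p (Benjamini-Hochberg, over all 15916 genes) under 0.1. Intervals (95%) use the model's standard error. Correlations used log2 CPM (prior count 2) and permutation tests in Python 3.11.15. The fits were tested on simulated data. No pair of cows within a group differed by sampling noise alone: the lowest chi-square per gene over 105 pairs was 24.5. Alternatives were RLE and upper-quartile scaling, no filter, filterByExpr (10 reads), DESeq2 1.42.0, fits on the compared groups, log2 total count as a covariate, an adjusted p under 0.05, an exact permutation test within feeds, and each cow left out.

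Members, lists and tests were chosen with earlier results of these data known. Apart from some that are not reported here and stay in the list counts, the genes named are all members, called list genes, for each of the 10 pathway lists the 2 genes with the smallest p in GLY against CON and in HC against LC, and the 3 nearest genes of each member. BRIP1, FABP2 and the cell type markers, and the cows given by number, were named after their values were seen. RefSeq names (ARS-UCD2.0) were used for synonyms; no coordinates or sequences are given.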

Additional observations from a re-analysis of the deposited data

Results flagged for a closer look

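Of 32 sets, each the values of 1 gene in 1 feeding group, 5 held a highest cow whose gap to the next exceeded Dixon's 95% critical value. For normally distributed values, chance flags about 1 in 20 such sets. The rule was applied to CPM without a log transform, so the rate of chance flags here is not known. Cow 912 of GLY_LC had 68.4 CPM of CDKN1A, where the next cow of the group had 27.2. It also had 15.5 CPM of GADD45B, where the next had 4.68, and 41.4 CPM of BTG2, where the next had 17.5. This is the library with 387 CPM of intestinal epithelium markers. Of all cows it had the lowest sum over the further p53 targets, 443 CPM, and the highest over the apoptosis list, 505 CPM. The part of other cells in these sums was not tested. Cow 32 of GLY_HC had 20.5 CPM of GADD45B, where the next had 6.10, and 28.6 CPM of BTG2, where the next had 16.5. The 5 values come from 2 cows and are not independent of each other.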

How the results depend on the processing

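In every setting tried, 0 of the 8 genes were called in each of the 7 comparisons. Of 2136 alternative values of their log2 fold changes, 2088 kept the direction and 48, in 18 of 56 results, had the opposite sign, none of them called. With log2 total count as a covariate, GADD45B in GLY against CON was -0.094 and BTG2 in GLY_LC against CON_LC -0.019; the latter was -0.064 in the exact permutation test (p = 0.853). The cause of these sign changes was not tested.

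With each cow left out in turn, values that crossed 0 ranged as follows. In GLY against CON, GADD45B ranged from -0.21 to 0.15. In GLY_HC against CON_HC, MDM2 ranged from -0.097 to 0.018 and GADD45A from -0.022 to 0.19. In GLY_LC against CON_LC, CDKN1A ranged from -0.51 to 0.091, GADD45A from -0.032 to 0.18, GADD45B from -0.31 to 0.41, TP53INP1 from -0.42 to 0.094 and BTG2 from -0.33 to 0.22. In HC against LC, TP53INP1 ranged from -0.22 to 0.015, and within CON from -0.097 to 0.38. In GLY_HC against GLY_LC, GADD45B ranged from -0.34 to 0.89, SESN1 from -0.10 to 0.023 and BTG2 from -0.28 to 0.28. The interaction ranged from -0.34 to 0.26 for CDKN1A, -0.028 to 0.10 for MDM2, -0.073 to 0.15 for GADD45A, -1.06 to 0.17 for GADD45B and -0.029 to 0.11 for SESN1.

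Of the pathway list genes, 1 was called in HC against LC, and 0 without a filter, with log2 total count as a covariate, or at an adjusted p under 0.05; leaving out cows gave 0 to 4, with 0 for 17 cows and 4 without cow 260 of CON_LC. In GLY_HC against GLY_LC the count was 0, and 1 with RLE scaling and with DESeq2, and 0 to 1 with cows left out. The smallest adjusted p there was 0.1003 (BRIP1, edgeR). No paired analysis was possible because the cow numbers are animal identities that no 2 groups share. With 15 GLY and 16 CON cows, CHEK1 at -0.52 (SE 0.14) in GLY against CON was not called, so genes that were not called may still differ. Comparisons of single feeding groups had only 7 or 8 cows per group.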
